A study of Mus musculus with 2 samples.

Results

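Aerocytes, the Car4-expressing capillary endothelial cells of the alveolus, were studied in the lungs of female BALB/c mice carrying orthotopic K7M2 osteosarcoma, a mouse bone tumour line. One 10x single-cell RNA library came from mice given 1V209-Cho-Lip, a liposome carrying an agonist of Toll-like receptor 7, and 1 library came from mice given PBS. The lungs of 3 mice were pooled for each library. Dose, schedule, time of collection and age were not given in the sources used here. With 1 library per group there was no test: a treatment response and a difference between libraries cannot be told apart, and all intervals below cover counting error only.

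Aerocytes were chosen by their transcripts. A barcode needed at least 500 unique molecular identifiers (UMIs, counted RNA molecules), 200 genes and at most 20% mitochondrial UMIs, which 28280 of 28362 deposited barcodes had. It also needed S100a8 and S100a9 together under 3% of UMIs, at least 1 UMI of Cdh5, Cldn5, Pecam1 or Egfl7, at least 2 UMIs of Car4, Ednrb, Fibin and Apln with 2 of these 4 genes detected, at most 1 UMI of Vwf, and none of Ptprc, Gja5, Prox1 and Col1a2. In all 1410 barcodes met the rule, 634 in the 1V209-Cho-Lip library and 776 in the PBS library. They held 2037778 UMIs after 1V209-Cho-Lip and 2623881 UMIs after PBS, with a median per member of 2733 UMIs after 1V209-Cho-Lip and 2704 after PBS. A general capillary gate, used for comparison, asked for 2 UMIs of Gpihbp1, Plvap, Aplnr and Sema3c with 2 of these detected and at most 1 UMI of the aerocyte genes. It took 912 treated and 916 PBS barcodes.

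The alveolar capillary net is built of 2 endothelial cell types. Aerocytes are large, thin cells that lie against type 1 alveolar epithelium and line the gas exchange surface. They carry carbonic anhydrase 4 on their membrane, which handles bicarbonate, and depend on VEGF made by the epithelium. General capillary cells are the smaller, more proliferative type, regulate vessel tone and can give rise to aerocytes after injury.

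The gate genes describe how the cells were picked and are no finding. Car4 had 3940 CPM in treated and 4470 CPM in PBS aerocytes, where CPM is the number of UMIs of the gene scaled to the summed UMIs of the gate. Ednrb, the endothelin B receptor, had 1390 CPM after 1V209-Cho-Lip and 1270 CPM after PBS. Fibin, which codes for a secreted protein, had 521 CPM in treated and 353 CPM in PBS aerocytes, and Apln, the apelin ligand, 138 CPM in treated and 161 CPM in PBS aerocytes. Car4 was seen in 99.1% of treated and 99.5% of PBS members and Ednrb in 92.7% of treated and 92.0% of PBS members. Fibin was seen in 56.2% of treated and 46.0% of PBS members, whereas Apln was seen in 25.7% of treated and 37.0% of PBS members. The most common combination was Car4, Ednrb and Fibin in treated aerocytes, in 221 members, and Car4 with Ednrb alone in PBS aerocytes, in 274 members. All 4 genes were detected in 99 treated and 137 PBS members.

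Genes outside the gate matched the label. Tbx2, a T-box transcription factor, stood at 227 CPM in treated and 153 CPM in PBS aerocytes, against 11.4 CPM in treated and 6.21 CPM in PBS general capillary cells. It was detected in 45.6% of treated and 36.5% of PBS members. In T cells, taken as a background type, it was detected in 1.10% of treated and 0.917% of PBS barcodes, whose median depths were 3559 and 2945 UMIs. Pericytes, with 382 CPM after 1V209-Cho-Lip and 296 CPM after PBS, were the only one of the other 10 gates above the aerocytes for Tbx2. Emp2, a tetraspan membrane protein, had 3440 CPM in treated and 3800 CPM in PBS aerocytes, against 353 CPM in treated and 395 CPM in PBS general capillary cells. Kitl, the ligand of the Kit receptor, had 1350 CPM in treated and 1460 CPM in PBS aerocytes, against 322 CPM in treated and 340 CPM in PBS general capillary cells.

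**Figure D1:**
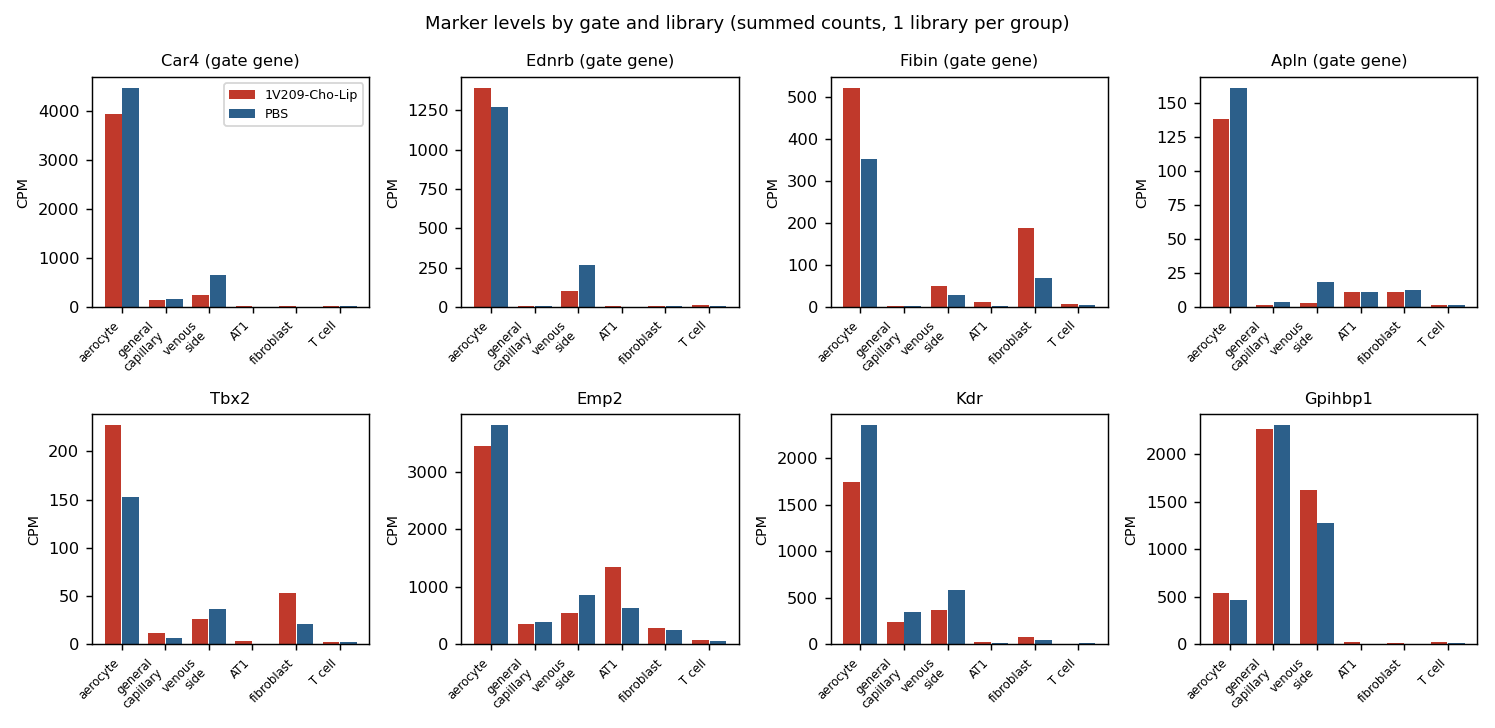
CPM (vertical axes, from 0) of the 4 gate genes and of 4 genes outside the aerocyte gate in 6 gates; each bar is 1 library, 1V209-Cho-Lip left and PBS right. Tbx2, Emp2 and Kdr are highest in aerocytes among the gates drawn, and Gpihbp1, which helped to choose general capillary cells, is higher there.

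Among the 15 highest aerocyte over general capillary ratios of genes that neither gate used, several rested on few general capillary UMIs, and their intervals were wide. Fndc1, a fibronectin domain protein, had a ratio of 113 (30.8 to 935) in treated and 162 (28.8 to 6420) in PBS cells, from 2 treated and 1 PBS general capillary UMI. Chst1, a sulfotransferase, had 42.8 (19.4 to 118) in treated and 89.7 (30.5 to 437) in PBS cells. Rspo3, a secreted enhancer of Wnt signalling, had 37.1 (6.29 to 1500) in treated and 43.2 (11.7 to 360) in PBS cells, from 1 treated and 2 PBS general capillary UMIs. Alpl, alkaline phosphatase, had 35.5 (19.1 to 74.7) in treated and 106 (41.1 to 389) in PBS cells, and Plau, the urokinase plasminogen activator, had 32.7 (18.9 to 61.9) in treated and 28.4 (16.8 to 52.3) in PBS cells. At the other end were Edn1, endothelin-1, with 0.149 (0.111 to 0.196) in treated and 0.133 (0.112 to 0.158) in PBS cells, and the chemokine Cxcl12, with 0.15 (0.124 to 0.181) in treated and 0.153 (0.137 to 0.17) in PBS cells. Vegfa, Kit, Ptprb, Npr3 and Entpd1 were also among the 15 lowest, so that the ligand Kitl and its receptor Kit lay on opposite sides.

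Members varied with the number of gate genes detected, and deeper members had more of them: the median was 2170.5, 2918 and 3358 UMIs in treated and 2323, 2769 and 3462 UMIs in PBS members with 2, 3 and 4 gate genes. Tbx2 had 211, 248 and 205 CPM in treated members with 2, 3 and 4 gate genes, and 135, 157 and 175 CPM in the matching PBS members. Gpihbp1, which anchors lipoprotein lipase on general capillary cells, had 643, 481 and 497 CPM in treated members and 643, 366 and 363 CPM in PBS members in the same order. Just inside the rule, the 38 treated and 32 PBS members with exactly 2 gate UMIs of 2 genes had 58.1 CPM of Tbx2 after 1V209-Cho-Lip and 68.8 CPM after PBS, at median depths of 1070 and 1379 UMIs. Just outside it, endothelial barcodes with 1 gate UMI had 26.6 CPM in 399 treated and 13.2 CPM in 418 PBS barcodes. Those with 2 or more UMIs of a single gate gene had 28.9 CPM in 413 treated and 15.3 CPM in 530 PBS barcodes. The Tbx2 levels just inside the rule rest on 4 treated and 5 PBS UMIs. General capillary genes were high in the same barcodes: Gpihbp1 had 1390 CPM after 1V209-Cho-Lip and 1030 CPM after PBS, and Plvap 828 CPM after 1V209-Cho-Lip and 1530 CPM after PBS.

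The share of aerocytes depended on what it was set against. They made up 4.62% of kept barcodes in the treated library (exact Clopper-Pearson 95% interval 4.28 to 4.99%) and 5.33% in the PBS library (4.97 to 5.71%), a ratio of 0.867 (0.779 to 0.964). Of aerocyte and general capillary barcodes together they made up 41.0% after 1V209-Cho-Lip and 45.9% after PBS, a ratio of 0.894 (0.804 to 0.994). Of all endothelial barcodes they made up 23.2% after 1V209-Cho-Lip and 25.5% after PBS, a ratio of 0.909 (0.817 to 1.01), whose interval includes 1. Intervals also reached past 1 with at least 3 gate UMIs of 3 genes, at 0.886 (0.769 to 1.02) of kept and 0.885 (0.768 to 1.02) of capillary barcodes, and for capillary barcodes thinned to 1000 UMIs, at 0.927 (0.826 to 1.04). Without the barcodes of a neutrophil gate, which took 4939 treated and 1600 PBS barcodes, the aerocyte share was 7.22% after 1V209-Cho-Lip and 5.99% after PBS, a ratio of 1.21 (1.08 to 1.34). The gate genes themselves had treated over PBS ratios of 0.881 for Car4, 1.09 for Ednrb, 1.48 for Fibin and 0.857 for Apln, and the part this played in the shares was not tested.

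Some members carried RNA of other cells. Markers of type 2 alveolar cells (AT2), the surfactant makers, took over 1% of UMIs in 4 treated and 18 PBS members, and these held 93.2% of the AT2-list UMIs of treated and 98.3% of those of PBS aerocytes. The club-cell gene Scgb1a1 passed 1% in 9 treated and 2 PBS members, and platelet and red-cell genes did so in 1 treated and 14 PBS members. Neutrophil genes passed it in 4 treated and 0 PBS members, and the summed level of the whole neutrophil list was 1030 CPM in treated and 293 CPM in PBS aerocytes. That list includes S100a8 and S100a9, which the rule capped. The 4 treated members held 22.4% of the list's treated UMIs, so leaving them out keeps most neutrophil-list RNA. After all members carrying other-cell RNA were left out, 10 of 10 neutrophil genes were higher, with a median log2 ratio of 2.55 in place of 2.07. Monocyte, macrophage and type 1 alveolar genes were not part of this 1% step. In all, 23 treated and 36 PBS members passed 1% for at least 1 such list. Scrublet called 32 treated and 48 PBS members doublets. The libraries shared 268 barcode sequences, 1 of them among the members of both. Without the members carrying other-cell RNA, the JAK-STAT, acute-phase, immediate-early and glucocorticoid lists described below each had 0 lower genes in place of 1, and other changes are given beside some of the results.

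Of 10651 genes with at least 20 UMIs in aerocytes, 1322 (12.4%) were at least 1.5-fold higher and 1149 (10.8%) at least 1.5-fold lower in the treated than in the PBS library. The median log2 ratio of all these genes was -0.03. In the general capillary gate 12.0% of 10476 genes were higher and 12.6% lower, with a median of -0.07. Ratios below are CPM of the treated over the PBS library, with exact conditional 95% intervals. Counts of list genes below are to be read beside the shares of all genes, 12.4% higher and 10.8% lower in aerocytes.

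The 15 highest ratios, taken over genes that reached 100 UMIs and 50 CPM, were not limited to aerocytes: each of these genes was at least 1.5-fold higher in every other gate where it was measured, except Nbl1 with 8 of 9. Scand1, a small SCAN-domain protein, had 178 CPM in treated and 4.19 CPM in PBS aerocytes, a ratio of 42.5 (23.5 to 85.9), and was seen in 233 of 634 treated and 11 of 776 PBS members. Cebpd, a transcription factor of the acute-phase response, had 652 CPM in treated and 40.8 CPM in PBS aerocytes, a ratio of 16 (13.1 to 19.7), in 337 treated and 79 PBS members. Il31ra, a cytokine receptor subunit, had 1600 CPM after 1V209-Cho-Lip and 186 CPM after PBS, a ratio of 8.62 (7.84 to 9.50). Pim3, a kinase gene induced through STAT factors, had 210 CPM in treated and 28.2 CPM in PBS aerocytes, a ratio of 7.45 (5.81 to 9.67). Glrx5 and Iscu, of mitochondrial iron-sulfur cluster assembly, had ratios of 6.4 (4.38 to 9.61) and 6.14 (4.85 to 7.84). Eif3f, a translation initiation subunit, had 6.46 (4.97 to 8.49), and Med30, of the Mediator complex, 5.85 (3.73 to 9.52). Ccl21a also ranked here with 16.7, but 97.1% of its treated UMIs came from 1 member, and its ratio was 0.462 (0.148 to 1.24) without the members carrying other-cell RNA.

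**Figure D2:**
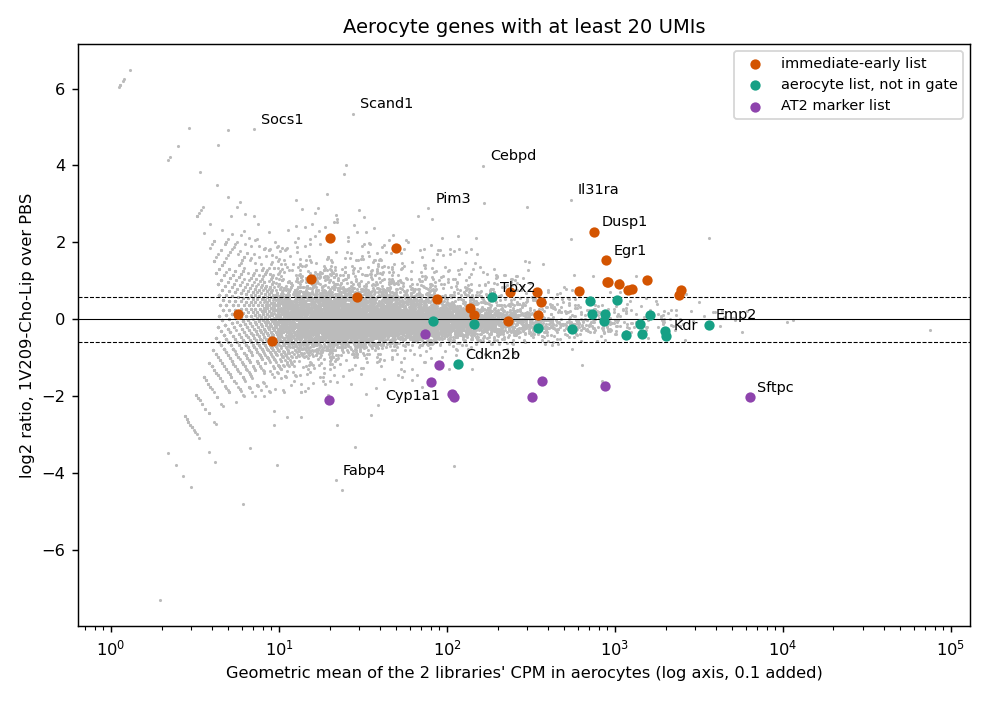
Each point is 1 of 10651 genes in aerocytes; the horizontal axis is its level on a log scale and the vertical axis the log2 ratio of the 1V209-Cho-Lip over the PBS library, with dashed lines at 1.5-fold. Immediate-early genes lie mostly above the upper line, most aerocyte genes between the lines, and 9 of 10 AT2 markers, carried by few members, below the lower line.

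Feedback genes of JAK-STAT signalling, which cytokines switch on through STAT factors and which then dampen it, were higher in 5 of 12 measured members and lower in 1, with a median log2 ratio of 0.44. Socs1, a suppressor of cytokine signalling, had 40.7 CPM in 57 treated members and 1.14 CPM in 3 PBS members, that is 83 and 3 UMIs, a ratio of 35.6 with a wide interval (11.8 to 176); alternatives gave 12.3 to 70.2. In general capillary cells Socs1 had 51.0 CPM in treated and 9.6 CPM in PBS barcodes. Socs3, of the same family, had 309 CPM in treated and 183 CPM in PBS aerocytes, a ratio of 1.69 (1.5 to 1.90), and 1.69 in general capillary cells. Cish, another member, had 179 CPM in treated and 78.5 CPM in PBS aerocytes, a ratio of 2.28 (1.91 to 2.71), and 2.32 in general capillary cells. Socs2 lay on the other side, with 29.9 CPM in treated and 50.7 CPM in PBS aerocytes, a ratio of 0.591 (0.429 to 0.805), and 0.683 without the members carrying other-cell RNA. Stat3 itself had a ratio of 1.44 (1.28 to 1.64), short of 1.5, while Jak1 had 1.07 (0.946 to 1.21), and 0.608 when each barcode was thinned to 1000 UMIs.

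Acute-phase genes were higher in 10 of 14 measured and lower in 1, with a median of 1.64. Lrg1, a secreted glycoprotein that acts on vessel growth, had 116 CPM in treated and 27.8 CPM in PBS aerocytes, a ratio of 4.16 (3.19 to 5.49), and 4.25 in general capillary cells. Without the members carrying other-cell RNA it had 106 CPM in treated and 17.0 CPM in PBS aerocytes, a ratio of 6.26 (4.44 to 9.02). The ratio was then 4.67 (3.61 to 6.12) in general capillary cells. The treated aerocyte level of Lrg1 was then 6.14% of that in its highest gate. What part of the acute-phase values came from free RNA of other cells was not tested. Saa3, serum amyloid, had 58 UMIs in treated and 2 UMIs in PBS aerocytes, and stood at 1040 CPM in treated and 18.0 CPM in PBS fibroblasts. Hp, haptoglobin, had a ratio of 2.24 (1.64 to 3.09) in aerocytes and 12.1 in general capillary cells; without those members the aerocyte ratio was 5.51 (3.11 to 10.4). Lcn2 was the 1 lower gene, at 0.342 (0.271 to 0.429), with 80.5% of its PBS UMIs in a single member; without those members it had 8.32 (2.90 to 32.7). Then 10 of 13 genes were higher and 0 lower. Of 5 measured C/EBP genes, Cebpd included, 3 were higher and 1 lower. Cebpg had 69.2 CPM in treated and 29.3 CPM in PBS aerocytes, a ratio of 2.36 (1.77 to 3.15), and 1.42 when thinned to 1000 UMIs. Cebpb had 16 UMIs after 1V209-Cho-Lip and 8 UMIs after PBS. The lower gene was Cebpa, with a ratio of 0.161, and 0.443 averaging CPM over cells. Without the members carrying other-cell RNA 3 of 4 C/EBP genes were higher and 0 lower.

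Immediate-early genes, which cells transcribe within minutes of a stimulus and also during tissue dissociation, were higher in 16 of 25 measured and lower in 1, with a median log2 ratio of 0.74. Dusp1, a phosphatase that switches off MAP kinases, had 1650 CPM in treated and 341 CPM in PBS aerocytes, a ratio of 4.85 (4.51 to 5.23), in 500 treated and 397 PBS members. Egr1, a zinc-finger transcription factor, had 1510 CPM in treated and 522 CPM in PBS aerocytes, a ratio of 2.89 (2.71 to 3.08), and Junb, an AP-1 subunit, had 2230 CPM in treated and 1090 CPM in PBS aerocytes, a ratio of 2.05 (1.95 to 2.15). Jun and Fos, the partners that form AP-1, had 1.70 (1.64 to 1.76) and 1.56 (1.5 to 1.62). Ier5 had 3.62 (2.73 to 4.84) and Maff, a small Maf factor, 4.38 (2.77 to 7.14). Btg2, an antiproliferative gene, had 1450 CPM in treated and 769 CPM in PBS aerocytes, a ratio of 1.89 (1.79 to 2.0). In general capillary cells the list had the same direction, with 16 of 26 higher, 0 lower and a median of 0.75. Whether dissociation differed between the libraries was not tested. Gadd45b, a stress sensor, had 1.07 (0.918 to 1.25) in aerocytes and 2.24 (1.72 to 2.95) in general capillary cells.

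The promoters of Socs3, Dusp1 and Btg2 are shown because these genes were higher in treated aerocytes and each window holds 1 match to a searched motif, a STAT site in Socs3 and a cyclic AMP response element in Dusp1 and in Btg2. The sequences are the 250 bases before the RefSeq transcript start (GRCm38.p6), 5′ to 3′ on the gene's strand, with capitals marking the match. The searched letters were TTCNNNGAA for STAT factors, TGACGTCA for the cyclic AMP response element (CRE) and TGANTCA for AP-1, on both strands, besides the CArG box of serum response factor. No match overlapped another in these windows.
Socs3, chr11:117969367-117969616, minus strand, STAT match: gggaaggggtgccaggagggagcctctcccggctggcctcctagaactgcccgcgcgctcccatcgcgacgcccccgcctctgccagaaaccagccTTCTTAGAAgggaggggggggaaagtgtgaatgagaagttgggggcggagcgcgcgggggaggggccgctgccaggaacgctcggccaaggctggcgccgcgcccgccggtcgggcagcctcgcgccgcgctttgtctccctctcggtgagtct
Dusp1, chr17:26508473-26508722, minus strand, CRE match: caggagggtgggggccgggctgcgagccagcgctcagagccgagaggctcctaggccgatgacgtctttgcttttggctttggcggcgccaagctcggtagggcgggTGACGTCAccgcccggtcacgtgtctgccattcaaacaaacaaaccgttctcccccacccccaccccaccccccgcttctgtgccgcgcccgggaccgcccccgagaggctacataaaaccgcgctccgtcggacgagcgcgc
Btg2, chr1:134079156-134079405, minus strand, CRE match: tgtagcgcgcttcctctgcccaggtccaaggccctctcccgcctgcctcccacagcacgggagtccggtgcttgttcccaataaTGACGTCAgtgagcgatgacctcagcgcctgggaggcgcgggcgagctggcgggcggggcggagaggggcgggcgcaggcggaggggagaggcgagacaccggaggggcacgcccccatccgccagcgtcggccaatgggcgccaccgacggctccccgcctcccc

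The matches begin 154 bases before the start in Socs3, 143 in Dusp1 and 166 in Btg2. The CRE letters were in the promoters of 3 of 22 immediate-early genes with an entry (13.6%), against 3.14% of 8374 genes with at least 20 UMIs in aerocytes and 1.55% of all 32851 promoters. The STAT letters were in 2 of 10 JAK-STAT feedback genes (20%), against 7.26% of the aerocyte genes and 7.02% of all promoters. CArG boxes were in 3 of the 22 immediate-early genes, against 1.46% of the aerocyte genes, while AP-1 letters were in 1 of the 22, against 5.16%. These are letter matches in a short window, not measured binding.

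NF-kB is the transcription factor that Toll-like receptors activate. Its targets and feedback genes were higher in 8 of 24 measured (33.3%, against 12.4% of all genes) and lower in 3 (12.5%, against 10.8%). Their median was 0.38. Without the members carrying other-cell RNA the counts were 10 higher and 1 lower. Il1b, Cxcl2 and Saa3, each at a higher level in neutrophils or fibroblasts than in aerocytes, are among the 8 higher genes. Lcn2, also a neutrophil-list gene, is among the 10. The part of other cells' RNA in these counts was not tested. Ier3, a survival gene, had 1280 CPM in treated and 654 CPM in PBS aerocytes, a ratio of 1.95 (1.84 to 2.08). Tnfaip3, which codes for the feedback enzyme A20, had 65.8 CPM in treated and 32.8 CPM in PBS aerocytes, a ratio of 2.01 (1.52 to 2.66). Nfkbiz had 1.65 (1.43 to 1.92) and the transcription factor Irf1 1.58 (1.44 to 1.72); thinned to 1000 UMIs they had 1.27 and 1.4. Icam1, a leukocyte adhesion molecule, had 837 CPM in treated and 574 CPM in PBS aerocytes, a ratio of 1.46 (1.36 to 1.56), short of 1.5, and 1.74 in general capillary cells. Nfkbia, the main inhibitor of NF-kB, had 1.12 (1.05 to 1.19), and the subunits Nfkb1 and Rel had 1.03 and 0.947.

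Cxcl2, a neutrophil-attracting chemokine, had 117 CPM in treated and 29.0 CPM in PBS aerocytes, a ratio of 4.03 (3.10 to 5.29), and 110 CPM in treated and 112 CPM in PBS general capillary cells, a ratio of 0.980 (0.802 to 1.2). Il1b, the cytokine interleukin-1 beta, had 262 CPM in treated and 74.3 CPM in PBS aerocytes, a ratio of 3.53 (2.99 to 4.18). Both are abundant in neutrophils, where Cxcl2 had 6790 CPM in treated and 6800 CPM in PBS barcodes and Il1b 17500 CPM in treated and 18600 CPM in PBS barcodes. Neutrophil genes moved alongside: of 10 measured in aerocytes 9 were higher and 1 lower. S100a8 and S100a9 among them were capped by the rule. Wfdc17, which the rule did not use, had 46.6 CPM in treated and 6.1 CPM in PBS aerocytes. In T cells, Cxcl2 had 459 CPM in treated and 199 CPM in PBS barcodes. It was also higher in type 1 alveolar cells, with 87.0 CPM in treated and 19.2 CPM in PBS barcodes. AT2 cells had 115 CPM in treated and 34.2 CPM in PBS barcodes, and fibroblasts 95.9 CPM in treated and 11.2 CPM in PBS barcodes. In general capillary cells, where Cxcl2 did not differ, 11 of 11 measured neutrophil genes were higher and 0 lower. Wfdc17 had 77.0 CPM in treated and 4.52 CPM in PBS barcodes there, and Il1b 345 CPM in treated and 199 CPM in PBS barcodes. The part of free neutrophil RNA in the Cxcl2 and Il1b values was not tested.

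Type I interferon-stimulated genes, the antiviral genes that cells switch on in response to interferon, mostly lay within 1.5-fold in aerocytes. Of 36 measured, 1 was higher and 3 lower (8.33%, against 10.8% of all genes), with a median of -0.07. In general capillary cells 17 of 38 were lower (against 12.6% of all genes there) and 1 higher, with a median of -0.54. Isg15, a ubiquitin-like protein, had 117 CPM in treated and 101 CPM in PBS aerocytes, a ratio of 1.16 (0.970 to 1.39), against 175 CPM in treated and 260 CPM in PBS general capillary cells, a ratio of 0.673 (0.582 to 0.777). Rsad2, the antiviral enzyme viperin, had 20 UMIs in treated and 18 UMIs in PBS aerocytes, a ratio of 1.43 (0.719 to 2.87), against 0.235 (0.140 to 0.377) in general capillary cells. For Isg15 and Rsad2, picked from the list after their values were seen, the intervals of the 2 cell types did not overlap. Differences between the cell types were common. The aerocyte ratio was also divided by the general capillary ratio, for 4632 genes with 100 UMIs in both and without the members carrying other-cell RNA. The interval of this quotient lay above 1 for 343 genes and below 1 for 273. Ly6e had ratios below 1 in both, 0.693 (0.668 to 0.718) in aerocytes and 0.491 in general capillary cells. Ly6a, the surface protein Sca-1, had 10300 CPM in treated and 10900 CPM in PBS aerocytes, a ratio of 0.944 (0.928 to 0.961). The 1 higher gene was Ifitm1, with 43.2 CPM in treated and 8.0 CPM in PBS aerocytes, which was also higher in 8 of 9 other gates. Without the members carrying other-cell RNA 2 genes were higher and 4 lower.

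**Figure D3:**
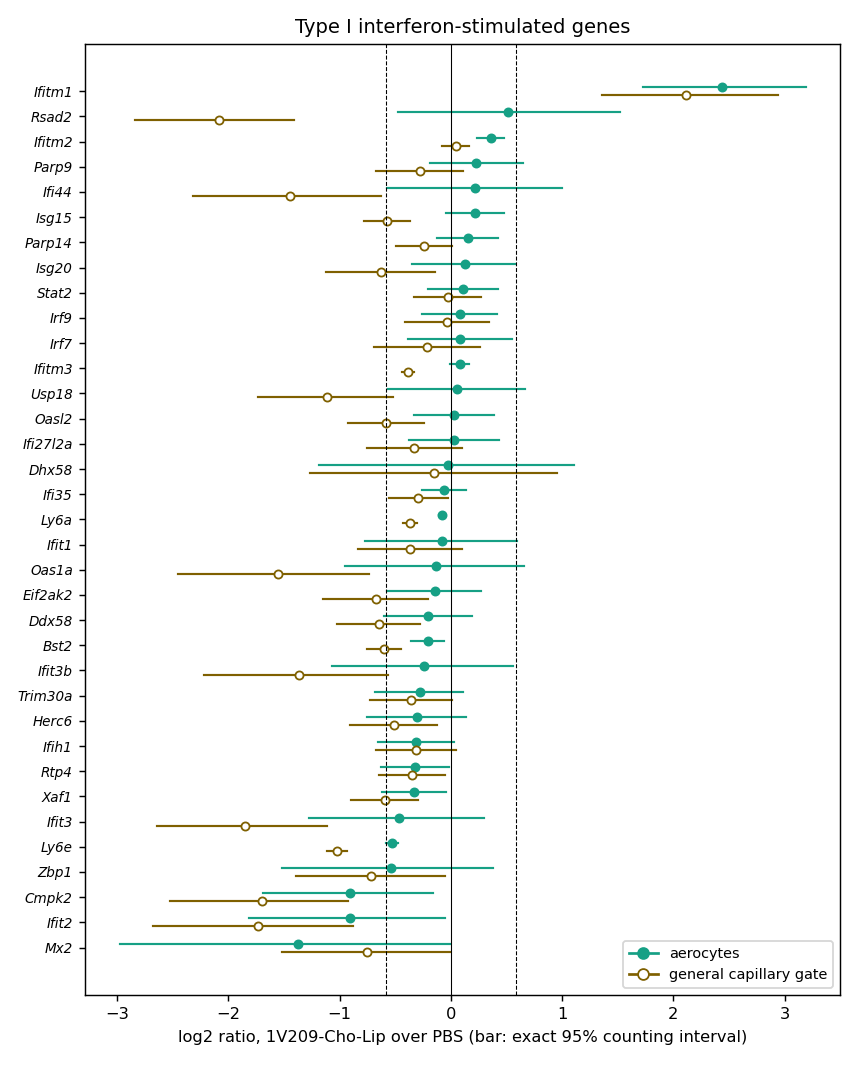
Log2 ratios (horizontal axis) of the 1V209-Cho-Lip over the PBS library for 35 interferon-stimulated genes, in aerocytes (filled) and general capillary cells (open), with exact 95% counting intervals and dashed lines at 1.5-fold. Most aerocyte points lie between the dashed lines, and many general capillary points lie to the left of the lower one.

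Genes of the interferon-gamma response and its GTPases were higher in 2 of 19 in aerocytes (10.5%, against 12.4% of all genes) and lower in 5 (26.3%, against 10.8%), with a median of -0.18. That median was 0.24 when barcodes were thinned to 1000 UMIs and 0.14 with at least 3 gate UMIs of 3 genes. In general capillary cells 2 of 20 were higher (against 12.0% of all genes) and 11 lower (against 12.6%), with a median of -0.63. Gbp2, a guanylate-binding protein, had a ratio of 0.828 (0.667 to 1.03) in aerocytes and 0.454 in general capillary cells, while Gbp4 was at least 1.5-fold lower in both, with 0.563 (0.448 to 0.704) and 0.409; thinned, it had 0.733 in aerocytes. Of 21 MHC class I presentation genes 0 were past 1.5-fold in aerocytes, and 5 were lower in general capillary cells. H2-K1 and H2-D1, the classical class I chains, had aerocyte ratios of 1.15 (1.11 to 1.18) and 1.15 (1.12 to 1.19), while the chaperone Pdia3 had 0.696 (0.638 to 0.759). MHC class II genes were lower in 5 of 8 with a median of -0.83. Cd74, the class II invariant chain, had 423 CPM in treated and 962 CPM in PBS aerocytes, a ratio of 0.439 (0.406 to 0.475), with 18.4% of its PBS UMIs in 1 member. AT2 cells and leukocytes also express this list, and without members carrying other-cell RNA 3 of 8 were lower, with a median of -0.52.

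**Figure D4:**
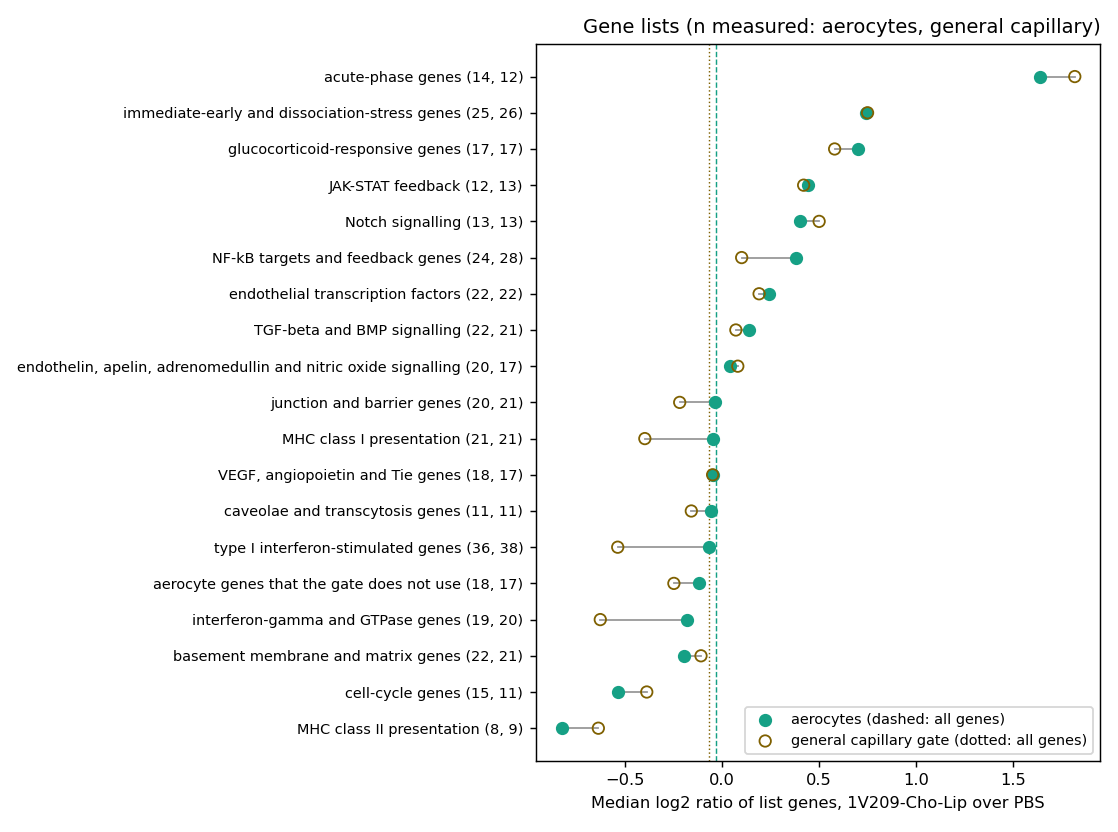
Median log2 ratio of the 1V209-Cho-Lip over the PBS library (horizontal axis) of 19 gene lists in aerocytes (filled) and general capillary cells (open); dashed and dotted lines are the medians of all genes in the 2 gates. Acute-phase and immediate-early genes lie to the right in both, while the interferon and MHC class I lists lie near 0 in aerocytes and further left in general capillary cells.

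Most genes of the aerocyte list lay within 1.5-fold between libraries. Of 18 genes that mark aerocytes and are not used by the gate, 0 were higher and 1 was lower, with a median of -0.12. Kdr, the main VEGF receptor, had 1740 CPM in treated and 2350 CPM in PBS aerocytes, a ratio of 0.741 (0.711 to 0.773), and 0.693 in general capillary cells. Its co-receptor Nrp1 had 1280 CPM in treated and 1650 CPM in PBS aerocytes, a ratio of 0.775 (0.738 to 0.813). Tbx2 had a ratio of 1.48 (1.29 to 1.70), and its relative Tbx3 had 0.966 (0.907 to 1.03). Prx, periaxin, had 839 CPM in treated and 603 CPM in PBS aerocytes, a ratio of 1.39 (1.30 to 1.49), and Igfbp7, which binds insulin-like growth factors, 1.40 (1.33 to 1.49). Hpgd, which degrades prostaglandins, had 1.08 (1.03 to 1.13) in aerocytes and 0.683 in general capillary cells. The lower gene was Cdkn2b, a cyclin-dependent kinase inhibitor, with 77.5 CPM in 133 treated members and 175 CPM in 303 PBS members, a ratio of 0.444 (0.368 to 0.533). It was low in general capillary cells, at 9.77 CPM in treated and 6.78 CPM in PBS barcodes. None of 12 general endothelial genes passed 1.5-fold either way, but Cdh5, Cldn5, Pecam1 and Egfl7 among them helped to choose the cells.

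Among 18 VEGF and angiopoietin genes 1 was higher (5.56%) and 2 lower (11.1%, against 10.8% of all genes), with a median of -0.05. Apln among them is a gate gene. Tek, the angiopoietin receptor, had 146 CPM in treated and 226 CPM in PBS aerocytes, a ratio of 0.644 (0.558 to 0.741), and 0.676 to 0.805 under 4 alternatives. Flt1, the decoy VEGF receptor, had 1.13 (1.06 to 1.2) in aerocytes and 1.75 (1.65 to 1.85) in general capillary cells, where it had 1720 CPM after 1V209-Cho-Lip and 986 CPM after PBS. Among 20 endothelin, apelin and nitric oxide genes 3 were higher (15%, against 12.4% of all genes) and 2 lower (10%, against 10.8%). Ednrb and Apln among them are gate genes. Edn1 had 29.0 CPM in 32 treated and 61.0 CPM in 72 PBS members, a ratio of 0.475 (0.346 to 0.644), and 0.426 in general capillary cells. The apelin receptor Aplnr had 20.6 CPM in treated and 40 CPM in PBS aerocytes, a ratio of 0.515 (0.351 to 0.743), and 1.01 when each barcode was thinned to 1000 UMIs; it helped to choose the general capillary cells. Ace, the angiotensin-converting enzyme, had 1450 CPM in treated and 1040 CPM in PBS aerocytes, a ratio of 1.39 (1.32 to 1.47), and 1.07 in general capillary cells. Of 13 Notch genes 4 were higher and 1 lower: the target Hes1 had 2.0 (1.52 to 2.64), whereas Hey1, another target, had 0.456 (0.318 to 0.642) in aerocytes, or 0.841 when thinned to 1000 UMIs, and 0.871 in general capillary cells.

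The lowest ratios by the naming rule were mostly AT2 genes carried by few PBS members. Sftpc, a surfactant protein, had 3130 CPM in treated and 12800 CPM in PBS aerocytes, and Sftpb, Sftpd, Cxcl15 and Napsa were among the same 15. Without the members carrying other-cell RNA Sftpc had a ratio of 0.844 (0.725 to 0.981). Cldn18, listed here as a type 1 alveolar gene, was also among the 15, with 0.332 (0.253 to 0.431). Its ratio was 0.486 (0.362 to 0.646) without those members and 1.12 when thinned to 1000 UMIs. Fabp4, a fatty acid-binding protein, had the lowest ratio, 0.0523 (0.0248 to 0.0979), with 10 UMIs in 7 treated members and 246 UMIs in 6 PBS members, 46.3% of them in 1 member. Cyp1a1, a target of the aryl hydrocarbon receptor, was spread over many cells, with 17.7 CPM in 15 treated members and 84.6 CPM in 104 PBS members, a ratio of 0.209 (0.143 to 0.298), and 0.255 in general capillary cells.

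Further low genes came up when the same rule was applied without the members carrying other-cell RNA, a step chosen after values were seen, and the values here are over all members. Tbxa2r, the thromboxane receptor, had 39.7 CPM in treated and 109 CPM in PBS aerocytes, a ratio of 0.363 (0.280 to 0.467). Pcdh12, an endothelial protocadherin, had 39.7 CPM in treated and 96.8 CPM in PBS aerocytes, a ratio of 0.411 (0.316 to 0.529). Gja4, a connexin, had 14.7 CPM in treated and 48.0 CPM in PBS aerocytes, a ratio of 0.307 (0.199 to 0.460), and Cxcl12 had 65.8 CPM in treated and 160 CPM in PBS aerocytes, a ratio of 0.412 (0.336 to 0.501); in general capillary cells Gja4 had 0.238 and Cxcl12 0.418. Rspo3, the Wnt enhancer, had 20.1 CPM in treated and 48.8 CPM in PBS aerocytes, a ratio of 0.412 (0.283 to 0.590).

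Structural genes differed gene by gene. Of 22 basement membrane and matrix genes 3 were higher and 5 lower, with a median of -0.20, and without the members carrying other-cell RNA 2 were higher and 7 lower. Timp3, an inhibitor of matrix proteases, had 1530 CPM in treated and 753 CPM in PBS aerocytes, a ratio of 2.03 (1.92 to 2.15), and 2.83 in general capillary cells. Itga1, a collagen-binding integrin, had 184 CPM in treated and 340 CPM in PBS aerocytes, a ratio of 0.542 (0.479 to 0.612), and Sparc, a matrix-associated glycoprotein, had 0.632 (0.576 to 0.693), and 0.751 when thinned to 1000 UMIs. Lamc1, a laminin chain, had 148 CPM in treated and 104 CPM in PBS aerocytes, a ratio of 1.42 (1.21 to 1.69), against 0.653 (0.448 to 0.944) in general capillary cells. Among 20 junction genes, which include the gate genes Cdh5 and Cldn5, 2 were higher (10%) and 1 lower (5%). Among 11 caveola genes 1 was higher (9.09%) and 0 lower. Of all genes 12.4% were higher and 10.8% lower. The higher caveola gene was Cavin3, a coat component, with 129 CPM in treated and 62.9 CPM in PBS aerocytes, a ratio of 2.04 (1.68 to 2.50).

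Several signalling and transport genes differed by more than 1.5-fold. Clic4, a chloride intracellular channel protein, had 1970 CPM in treated and 906 CPM in PBS aerocytes, a ratio of 2.17 (2.06 to 2.28), and 2.84 in general capillary cells. Tgfb1, the growth factor, had 157 CPM in treated and 40.8 CPM in PBS aerocytes, a ratio of 3.85 (3.08 to 4.84), in a list of 22 TGF-beta and BMP genes with 4 higher and 1 lower, whose median was 0.14, and -0.03 without the members carrying other-cell RNA. Plaur, the urokinase receptor, had 854 CPM in treated and 384 CPM in PBS aerocytes, a ratio of 2.22 (2.06 to 2.40). Sema7a, a membrane-bound semaphorin, had 611 CPM in treated and 228 CPM in PBS aerocytes, a ratio of 2.69 (2.44 to 2.97). Of 22 endothelial transcription factors 6 were higher and 0 lower, among them Foxf1, needed for lung capillaries, with 1.58 (1.43 to 1.74), Sox17 with 1.74 (1.35 to 2.26) and Klf4 with 1.67 (1.55 to 1.81). Hspb1, a small heat-shock protein, had 308 CPM in treated and 71.3 CPM in PBS aerocytes, a ratio of 4.32 (3.67 to 5.12). Of 15 cell-cycle genes 7 were lower and 1 higher with a median of -0.54, but without the members carrying other-cell RNA 4 of 12 were lower and 2 higher with a median of -0.26, and thinned to 1000 UMIs the median was 0.02. The counts were low: Mki67 had 2 UMIs in treated and 27 UMIs in PBS aerocytes, 40.7% of these in 1 member.

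Glucocorticoid-responsive genes, which steroid receptors switch on and stress raises, were higher in 10 of 17 measured and lower in 1, with a median of 0.70; in general capillary cells 8 of 17 were higher and 0 lower. Tsc22d3, the anti-inflammatory gene also called Gilz, had 664 CPM in 482 treated members and 374 CPM in 453 PBS members, a ratio of 1.78 (1.63 to 1.93). Zbtb16, a zinc-finger repressor, had 437 CPM in treated and 264 CPM in PBS aerocytes, a ratio of 1.66 (1.5 to 1.83). Fkbp5, a chaperone of the steroid receptor, had 15.2 CPM in treated and 5.34 CPM in PBS aerocytes, a ratio of 2.85 (1.47 to 5.80). Sgk1, a kinase, had 0.931 (0.845 to 1.03). Some of these genes are also stress genes, among them the metallothionein Mt1 with 135 CPM in treated and 62.9 CPM in PBS aerocytes, where 1 treated member held 23.6% of the UMIs.

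Of 24 apoptosis and p53 genes 7 were higher (29.2%, against 12.4% of all genes) and 0 lower (against 10.8%), with a median of 0.07. Bcl2l1, which codes for the survival protein Bcl-xL, had 241 CPM in treated and 139 CPM in PBS aerocytes, a ratio of 1.73 (1.51 to 1.99), against 1.01 (0.854 to 1.19) in general capillary cells. Mcl1, of the same family, had 1.86 (1.58 to 2.18) in aerocytes and 1.85 in general capillary cells. Fzd4, a Wnt and norrin receptor, had 201 CPM in treated and 123 CPM in PBS aerocytes, a ratio of 1.64 (1.41 to 1.90), against 1.13 (0.990 to 1.29) in general capillary cells. Pdgfb, the growth factor that recruits pericytes, had 0.829 (0.724 to 0.949) in aerocytes and 0.421 (0.309 to 0.568) in general capillary cells. Ramp2 and Calcrl, which together form the adrenomedullin receptor, had 1.16 (1.13 to 1.19) and 0.925 (0.892 to 0.959) in aerocytes.

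Tlr7, the receptor that the agonist addresses, was at the limit of detection in aerocytes. It had 0 UMIs in treated members, where a count of 0 allows up to 1.47 CPM, and 2 UMIs in PBS members. In mononuclear phagocytes it had 50.7 CPM in treated and 52.2 CPM in PBS barcodes. The related receptor gene Tlr8 had 2 UMIs in treated and 2 UMIs in PBS aerocytes. Myd88, the adaptor of these receptors, had 31.4 CPM in treated and 17.9 CPM in PBS aerocytes, a ratio of 1.75 (1.18 to 2.61).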

How the data were processed

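The deposited matrices of whole UMI counts per gene and barcode were used, 13740 barcodes with 54843992 UMIs from the 1V209-Cho-Lip library and 14622 barcodes with 58156102 UMIs from the PBS library. Per the file headers the authors made these counts with Cell Ranger 9.0.1, and per the labels reads were mapped to mm10; annotation release, chemistry and filters are not given in the sources used here. Barcodes were gated by transcripts, counts were summed per gate and library and divided by the summed UMIs (CPM), and the treated over PBS ratio got an exact conditional binomial 95% interval. A gene was measured with at least 20 UMIs over both libraries and counted as higher or lower past 1.5-fold. List medians add 0.5 counts, and a count of 0 was given a limit of 3 counts. No p-value was computed, since 1 library of 3 pooled mice stands for each group. Intervals cover counting error only. Doublets were kept, and Scrublet (in Scanpy 1.11.5), which called 1455 treated and 1906 PBS barcodes, was an alternative. The 49 gene lists, the members and the comparisons were chosen with earlier results of these data known. The genes named were the 15 highest and 15 lowest ratios (at least 100 UMIs and 50 CPM, with mitochondrial, ribosomal, haemoglobin, immune receptor and predicted genes and those under 5% of their highest gate left out), the gate genes, the 15 highest and lowest aerocyte over general capillary ratios, and in each list up to 5 genes with most UMIs and its highest and lowest ratio; other genes named were chosen after their values were seen. Gene identifiers matched GENCODE vM21 (GRCm38) for 52081 of 55357. A few of the genes the rule named are not reported here. The ratio and interval code was tested on simulated data. The work used R 4.3.3 with edgeR 4.0.16 (TMM factors, an alternative scaling) and Python 3.11.15 with scipy 1.17.1, numpy 2.4.6 and pandas 2.3.3.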

Additional observations from a re-analysis of the deposited data

Results flagged for a closer look

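Genes named by the rule are given here where the aerocyte and general capillary ratios of the treated over the PBS library lay past 1.5-fold in opposite directions; with 1 library a group the difference itself was not tested. The set is not complete. Without the members carrying other-cell RNA, Ccl4 had 0.0642 (0.0204 to 0.155) in aerocytes, on 5 treated and 96 PBS UMIs. In general capillary cells it had 12.1 (5.89 to 28.8). Igfbp6 had 0.616 (0.438 to 0.859) in aerocytes and 4.26 (2.76 to 6.81) in general capillary cells. The PBS aerocyte level was 9.37% of that in the highest gate for Ccl4 and 4.87% for Igfbp6. Alcam, a cell adhesion molecule, had 0.494 (0.376 to 0.643) in aerocytes and 2.27 (1.82 to 2.84) in general capillary cells. Without the members carrying other-cell RNA its aerocyte ratio was 1.02. Lcn2, an acute-phase gene, had 0.342 in aerocytes and 2.44 in general capillary cells, with 80.5% of its PBS aerocyte UMIs in 1 member. Without the members carrying other-cell RNA its aerocyte ratio was 8.32. The surfactant genes Sftpa1 and Sftpd had 0.301 and 0.246 in aerocytes, against 1.61 and 1.65 in general capillary cells. In PBS aerocytes 1 member held 36.7% of the Sftpa1 and 35.5% of the Sftpd UMIs. Without the members carrying other-cell RNA the aerocyte ratio of Sftpa1 was 1.04. Lamp3, an AT2 gene, had 0.227 in aerocytes and 1.73 in general capillary cells, with 27.8% of its PBS aerocyte UMIs in 1 member. Sema3e, a semaphorin, had 0.266 in aerocytes and 1.78 in general capillary cells, with 79.3% of its PBS aerocyte UMIs in 1 member.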

How the results depend on the processing

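No paired analysis was possible because each group was 1 library, and leaving out a replicate was not possible for the same reason. There were 13 alternatives, 2 of them (members with other-cell RNA or shared barcodes left out) chosen after seeing the data. The aerocyte shares of kept and of capillary barcodes were lower in the treated library under each of the 7 that could change them. None of these left the neutrophil gate out of the kept barcodes, where the share ratio was 1.21 (1.08 to 1.34). The count of genes at least 1.5-fold higher was 988 to 1450, and of genes lower 914 to 1237, except under the 2 minimums: without a minimum 4479 were higher and 5627 lower, and with at least 100 UMIs 587 were higher and 292 lower. The genes themselves changed more than the counts. Thinned to 1000 UMIs, 538 of 988 higher and 255 of 914 lower genes were also called in the main setting. With at least 3 gate UMIs of 3 genes these were 863 of 1141 higher and 684 of 1168 lower genes. Of list medians 533 stayed within tolerance, 100 moved and 4 turned: lymphatic to -0.05 when barcodes were thinned to 1000 UMIs, lymphocyte to 0.39 without doublets, AT2 to 0.06 without members carrying other-cell RNA, and C/EBP to -0.05 without a minimum. Of ratios of 322 named genes 3079 stayed, 344 moved and 22 turned, and 97 could not be given for fewer than 20 UMIs. Thinning to 1000 UMIs left 143 of these ratios the same, moved 121 and turned 7, whereas TMM scaling moved 0. Thinned, they turned to 1.10 for Alcam, 1.01 for Aplnr, 0.459 for Ccl21a, 1.12 for Cldn18, 5.53 for Lcn2, 0.447 for Prss23 and 0.913 for Scgb1a1. Without members carrying other-cell RNA they turned to 1.02 for Alcam, 0.462 for Ccl21a, 2.88 for Chil1, 8.32 for Lcn2, 1.10 for Napsa, 1.04 for Sftpa1 and 1.34 for Sftpb. With at least 3 gate UMIs of 3 genes they turned to 0.419 for C3, 0.629 for Clic3, 0.587 for Mgp and 0.923 for Ptgis. Without doublets Mrc1 turned to 1.40. Averaging CPM over cells, Lcn2 turned to 1.80, Mrc1 to 1.25 and Sema3e to 1.16. The cause was not tested.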
